A study of Mus musculus with 6 samples.

Results

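The cytosolic ribosomal protein genes were examined as a family in single melanoma cells. They were chosen by symbol (Rpl or Rps followed by a number, plus Rplp0, Rplp1, Rplp2 and Rpsa, without pseudogenes named -ps, without Rps27a and without the Rps6k kinases), which gave 92 of the 25215 genes in the table. The rule used no measured value. Of the 92 genes, 76 encode standard proteins of the ribosome (30 of the small subunit, 43 of the large subunit and 3 of the stalk), 8 are paralogs, 7 are near-identical retrocopies, and 1, Rps19bp1, encodes a protein that binds a ribosomal protein but is not one.

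The cells came from tumors of 6 C57BL/6 mice, each injected under the skin with 50000 cells on Day 0 and harvested on Day 15, with 2 mice in each of 3 conditions. B16 tumors grew from the melanoma line B16-F10 and received no treatment; B16PD1 tumors grew from the same line in mice given anti-PD1 (200 µg each time) on Day 5, Day 8 and Day 11; R499 tumors grew untreated from Res499, a line derived from a B16 tumor that had relapsed after radiation and an antibody to CTLA4. The R499 values describe 1 derived line in 2 mice. Age and sex are not given in the sources used here. The mice were injected on both flanks, and the paper counts 6 tumors sequenced. Whether cells from both flanks of a mouse were pooled is not given. Sorted CD45-negative cells were sequenced with a full-length SMART-Seq protocol on the ICELL8 platform, and the deposited values are TPM (transcript shares corrected for transcript length and scaled to the same total in each cell), so levels of different genes can be compared. The tumors are named B16007, B16008, B16PD1000, B16PD1002, R499015 and R499016 after the columns of the table.

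A cytosolic ribosome joins a small subunit, which reads the mRNA, to a large subunit, which forms the peptide bond, and nearly every ribosomal protein is present once in each ribosome. The acidic stalk proteins, which recruit elongation factors, are the exception. Most ribosomal protein mRNAs begin with a run of pyrimidines (C and T in DNA letters) at the first transcribed base, the 5′ terminal oligopyrimidine (TOP) element, through which the mTOR pathway controls their translation. The genome also holds many retrocopies and pseudogenes of these genes, and a few paralogs whose use differs between tissues.

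In total, 507 of 602 cells were retained (75 to 91 per tumor). The depth in reads is not known. Medians of genes detected per cell ran from 3141 to 3838.5 among tumors. No well was shared between tumors. As a check of the melanoma label, the pigment genes Tyrp1, Dct and Pmel were above 0 in 100% of cells. Mlana, Tyr, Mitf and Sox10 were above 0 in 99.4%, 98.0%, 92.9% and 65.1%. The summed immune markers were at most 0.0233% of TPM in any tumor. Nkg7, Col1a1, Kdr and the 4 keratinocyte genes were at 0 throughout. Other markers were not: the immune genes Fcer1g, Cd79a and Lyz2 were above 0 in 5.52%, 5.13% and 2.76% of cells, and the fibroblast gene Lum in 1.38%. Ribosomal protein genes that every cell needs were themselves listed at 0 in some cells, so a 0 is reported only as listed at 0.

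For sequence context, 30 bases around annotated start sites are shown for abundant members, for a retrocopy and for a paralog, taken from RefSeq on GRCm38.p6, with 15 bases on each side of the start and read 5′ to 3′ on the gene's strand. Capitals mark the longest run of at least 5 bases made only of C and T that overlaps the stretch from 5 bases before to 5 bases after the start, or the one nearer the 5′ end where runs are equally long, as in Rps27rt. The windows are Rps18 at chr17:33955651-33955680 (minus strand), Rps27 at chr3:90213634-90213663 (minus), Rps27rt at chr9:114982725-114982754 (minus), Rpl41 at chr10:128549154-128549183 (minus) and Rpl22l1 at chr3:28805493-28805522 (plus).
Rps18: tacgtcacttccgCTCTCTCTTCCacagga
Rps27: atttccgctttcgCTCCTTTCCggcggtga
Rps27rt: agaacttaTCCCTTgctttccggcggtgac
Rpl41: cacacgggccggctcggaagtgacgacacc
Rpl22l1: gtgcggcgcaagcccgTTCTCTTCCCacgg
The run was 11 bases long in Rps18, 9 in Rps27, 6 in Rps27rt and 10 in Rpl22l1, and no such run touched the annotated start of Rpl41. On the gene's strand, 34 of 67 promoters of standard members (50.7%) held a run, against 32.9% of 32851 promoters of all genes and 40% of 75 promoters of mitochondrial ribosomal protein genes. A match describes letters at an annotated start and no more.

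The family took 15.7% of TPM on average over the 507 cells (SD 2.99 over cells, range 8.25% to 28.0%). Proteins of the large subunit accounted for 8.12% of TPM, those of the small subunit for 6.42%, the stalk for 0.660%, paralogs for 0.306% and retrocopies for 0.169%. Of the 50 most abundant genes in these cells 16 belonged to the family, and of the 100 most abundant 35 did. Levels were far from equal although the proteins are used in equal number: the standard members spanned 28.9-fold, from 361 TPM for Rpl36a to 10434 TPM for Rpl32, with a median of 1527. The 5 highest members held 20.8% of the family's TPM, and 20 members held more than 50% of it.

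Rpl32, a large-subunit protein (chr6:115805505-115808747, GRCm38), was the most abundant member, with 10645 TPM in B16007, 10197 in B16008, 10270 in B16PD1000, 10619 in B16PD1002, 10451 in R499015 and 10404 in R499016. Its 6 tumor means nearly coincided. Other abundant members were Rps18 of the small subunit at 5297 TPM (4992 to 5787 among tumors), Rpl41, the shortest ribosomal protein, at 5264 (4704 to 5869), and Rps27 of the small subunit at 5138 (4164 to 5936). Among the stalk proteins, Rplp1 reached 3412 TPM, above its anchor Rplp0 at 1637 and its partner Rplp2 at 1555. Rpsa, a small-subunit protein that also serves as a laminin receptor, stood at 2215 TPM.

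The lowest members that passed the gene filter were 4 retrocopies and Rps19bp1. Rpl32l averaged 5.57 TPM, Rps3a3 6.10, Rpl6l 17.7, Rps19bp1 40.4 and Rps3a2 50.9. All of them were above 0 in fewer than 35% of cells, at most 171 of 507.

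**Figure D1:**
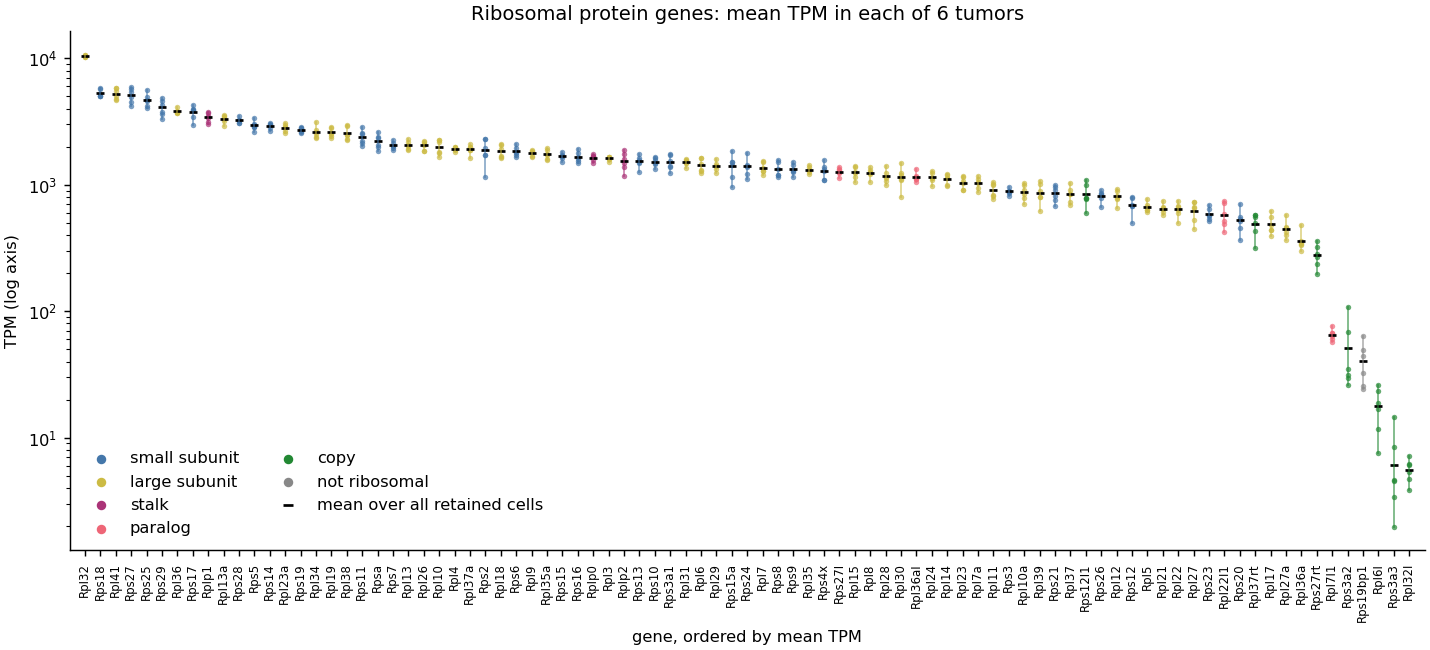
Mean TPM (log axis) of 87 of the members that passed the gene filter, ordered by the mean over all retained cells (black bars); points are the 6 tumors and colors give the role. The order runs from Rpl32 at 10434 TPM to Rpl32l at 5.57, and the 6 points of most members lie close together compared with the distance between genes.

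Not every cell had every ribosomal protein mRNA above 0. Of the standard members, 69 of 76 were above 0 in at least 90% of cells, with Rpl32 and Rpl4 among those above 0 in all 507. The 7 below 90% were Rpl36a (57.2%, 95% Wilson interval 52.9% to 61.4%, counting error only), Rps12 (70.0%), Rps21, Rpl17, Rpl22, Rpl27 and Rps23 (87.4%).

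The spread between cells was taken as the SD of log2(TPM + 1) over the cells of a tumor. Among the smallest values were those of Rpl32 (0.54) and Rpl4, a large-subunit protein that lines the exit tunnel (0.54), which ranked 6 and 7 from the lowest among 511 genes detected in at least 90% of cells. The largest among the 70 members of that set were Rpl38 (3.27), Rpl30 (3.11) and Rpl10 (3.10), all of the large subunit. Over all 70 the median SD was 1.98, close to the 2.01 of the whole set of 511 genes. When cells listed at 0 were left out, the median SD of these 70 members fell to 0.92 (range 0.54 to 1.76), and that of Rpl38 was 1.01. The SD was lower where more cells were above 0 (Spearman rho -0.988 over 76 standard members, a description). As a description over the same 507 cells, after removal of tumor means, the median Pearson r was 0.15 for the 2415 pairs of members, 0.076 for 30870 pairs of a member with another gene, and 0.084 for 97020 pairs of other genes.

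For the family as a whole, the SD of the share over the cells of a tumor was 16.4% to 19.7% of its mean. The summed TPM of the large subunit over that of the small averaged 1.31 (B16PD1002) to 1.48 (R499015) among tumors. Both B16PD1 tumors (1.363 and 1.312) lay below the others, the nearest being B16007 at 1.369, and this was not tested. The SD over all cells, 0.233, describes single cells and not the spread of tumor means. Over the cells of a tumor, the share had r between 0.20 and 0.46 with the share of 15 elongation factors and other TOP mRNAs, positive in 6 of 6 tumors, and r between -0.20 and 0.086 with the number of genes detected, positive in 3. The shares are parts of 1 total, and the number of genes detected comes from the same libraries, so all are given without a p-value.

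**Figure D2:**
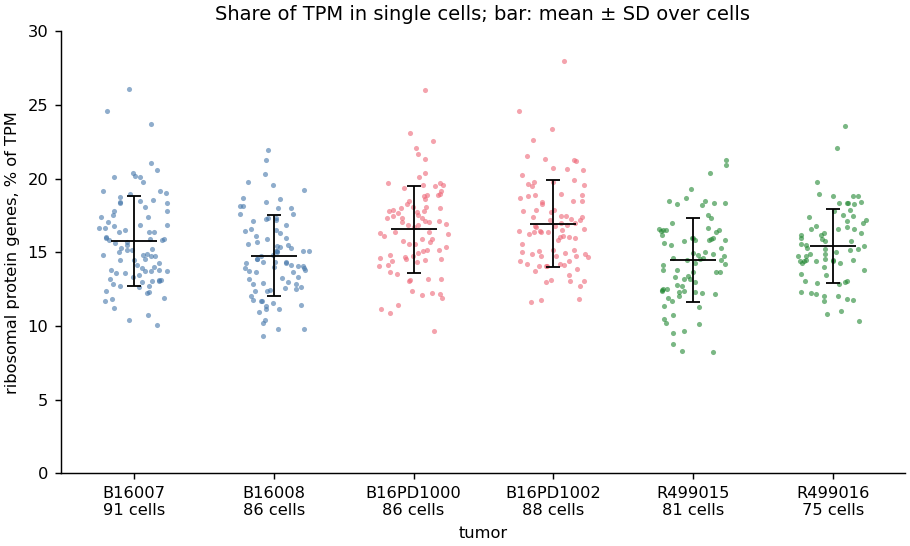
Percent of TPM taken by the 92 genes in each retained cell (points) of the 6 tumors, with mean ± SD over cells (bars). Cells range from 8.25% to 28.0% with wide overlap between tumors, and both B16PD1 means (16.5% and 16.9%) lie above the other 4 (14.5% to 15.8%).

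Sequence shared between genes bears on these values, since reads from identical stretches cannot be assigned with certainty. Of the 50-base windows in the coding sequence of a member (GENCODE M21, GRCm38), a median of 36.4% occurred in no other listed gene. For the 7 members annotated as processed pseudogenes the windows covered the whole transcript instead. For Rpl37rt this was 682 bases, with 61.3% of windows unique. For 18 members no window was unique, Rps27, Rpl38, Rpl10, Rpl17, Rps12 and Rpl36a among them, and for 24 over 90% were unique, such as Rpl41, Rpl4 and Rps20. The 24 standard members with under 10% unique windows were above 0 in a median of 95.1% of cells with a median SD of 2.46. The 18 standard members with over 90% were above 0 in 99.0% with a median SD of 1.38. The Spearman rho between unique windows and cells above 0 was 0.46 over 76 genes. Between mean TPM and cells above 0 it was 0.56, and between unique windows and mean TPM 0.16. The part of sequence or level in the detection was not tested. Exceptions ran both ways, with Rps21 wholly unique and yet above 0 in 77.1% of cells.

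**Figure D3:**
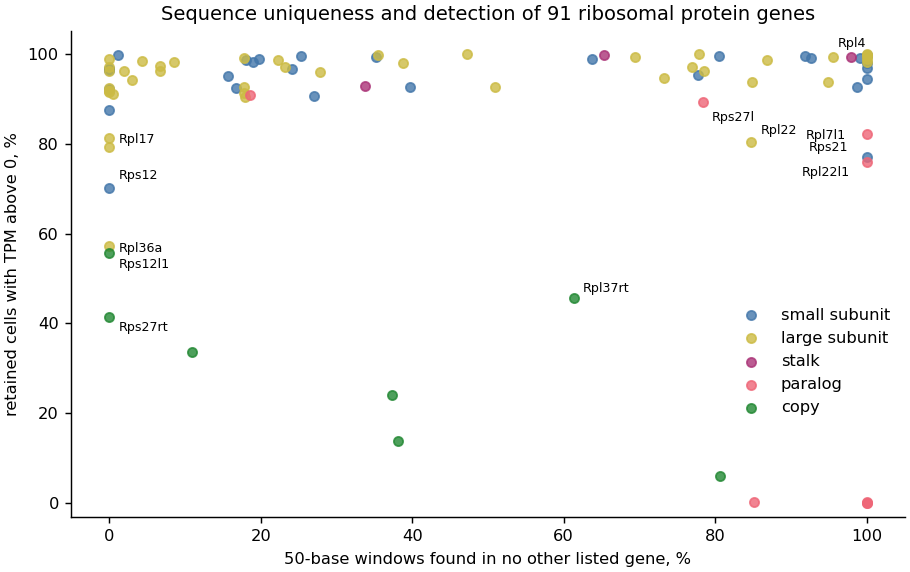
Percent of 50-base windows found in no other listed gene (x) against percent of retained cells with TPM above 0 (y) for the 91 members other than Rps19bp1, colored by role. Windows are from the coding sequence, or from the whole transcript of members annotated as processed pseudogenes, Rps4l among them. Rpl36a (57.2%) and Rps12 (70.0%), with no unique window, lie lowest among standard members, while the 4 paralogs at or near the bottom, Rpl10l, Rpl39l, Rpl3l and Rps4l, are 85.1% to 100% unique.

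The table also lists 296 pseudogenes of the family, which took 1.66% of TPM. Pseudogenes were assigned to a parent by symbol only. For 4 parents their summed TPM exceeded that of the parent. Rpl27, for which 3 pseudogenes are listed, stood at 623 TPM against 2602 for those pseudogenes, and Rps23 at 585 TPM against 1702, that is, 4.18 and 2.91 times the parent; the others were Rpl31 and Rpl36a. The levels of these parents are therefore uncertain.

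Paralogs were described next to their parents. The tissue-restricted ones were listed at 0 in nearly every cell. Rpl10l and Rpl39l, known from the testis, were listed at 0 in 507 of 507 cells, which allows up to 0.592% of cells with a value above 0 (a limit on listed values, not on cells that express the gene), while their parents Rpl10 and Rpl39, both on the X chromosome, stood at 1998 and 867 TPM. Rpl3l, known from heart and skeletal muscle, was above 0 in 1 cell (0.197%, 95% Wilson interval 0.0348% to 1.11%), and so was Rps4l, annotated as a transcribed processed pseudogene. Both of those cells came from R499016, and their parents Rpl3 and Rps4x stood at 1614 and 1293 TPM. These 4 paralogs did not pass the gene filter and were not tested.

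The 4 other paralogs were well expressed. Rpl36al was listed above Rpl36a in every tumor, with 1102 and 1146 TPM in B16, 1101 and 1327 after anti-PD1, and 1165 and 1043 in R499, against 361 TPM for Rpl36a. It made up 73.5% to 79.1% of the pair's TPM among tumors. The 4 pseudogenes assigned to Rpl36a by symbol held a further 557 TPM, 1.54 times Rpl36a itself. Among them, Rpl36a-ps3 shared 81.4% of the windows of Rpl36al, so part of this TPM may belong with Rpl36al. The lead of Rpl36al is therefore uncertain, and values of Rpl36a with pseudogenes added carry the same limit. Rpl36al was above 0 in 83.9% of the 217 cells with Rpl36a listed at 0 and in 95.9% of the 290 others. Rpl36al held 18.6% unique windows and Rpl36a none, and their coding sequences were 87.7% identical.

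Rpl22l1, the paralog of the large-subunit protein Rpl22, had nearly the level of its parent. Its tumor means were 589 and 420 TPM in B16, 486 and 718 after anti-PD1, and 520 and 747 in R499, and those of Rpl22 were in the same order 679 and 596, 666 and 747, and 496 and 629. Rpl22l1 made up 41.3% to 49.0% of the pair in the other conditions, and 51.2% and 54.3% in R499. The ranges of this share did not overlap, but the share itself was not tested and has no background. The log2(TPM + 1) means did not show Rpl22l1 rising over Rpl22. Between R499 and B16, Rpl22l1 differed by 0.01 (SE 0.39, limma adjusted p = 0.996) and Rpl22 by 0.08 (SE 0.37, limma adjusted p = 0.958). All windows of Rpl22l1 and 84.8% of those of Rpl22 were unique. In cells with Rpl22 above 0, Rpl22l1 was above 0 in 81.9% of 408, and in cells with Rpl22 listed at 0 in 51.5% of 99.

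Rps27l, a p53-responsive paralog of Rps27, stood at 1269 TPM, 19.8% of the pair, with 1122 and 1372 TPM in B16, 1343 and 1235 after anti-PD1, and 1299 and 1251 in R499. The conditions overlapped in TPM. On the log2(TPM + 1) scale it was 0.62 higher in B16PD1 than in B16 (SE 0.27, limma adjusted p = 0.989). Rpl7l1, a nucleolar relative of Rpl7, reached 65.3 TPM against 1364 for Rpl7, yet was above 0 in 82.2% of cells.

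**Figure D4:**
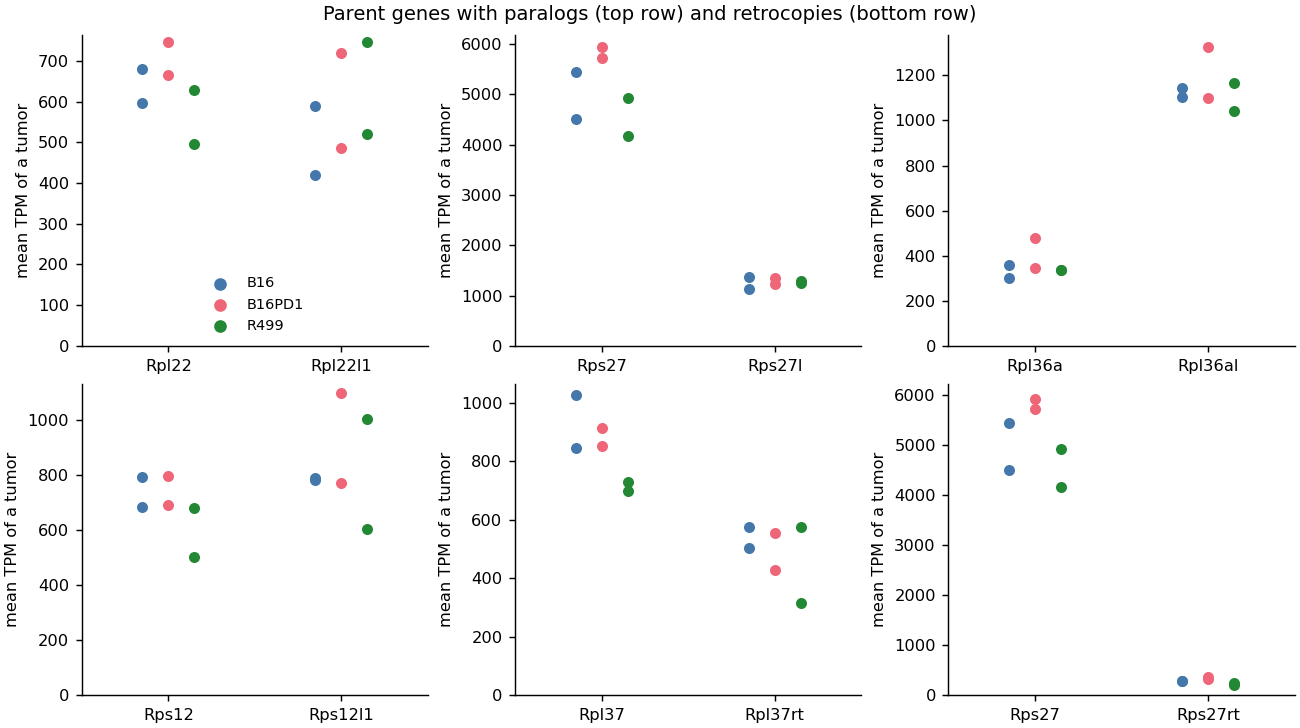
Mean TPM of a gene in each tumor (points, axes from 0, colors by condition) for 3 parents with paralogs (top row) and 3 with retrocopies (bottom row). Rpl36al lies above Rpl36a in every tumor, Rpl22l1 and Rpl22 overlap, and Rps27l and Rps27rt lie far below Rps27.

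Among the retrocopies, Rps12l1 was listed at 840 TPM, above Rps12 itself at 694. The coding sequence of Rps12 (396 bases) occurs in Rps12l1 without a mismatch, and so does that of Rps27 (252 bases) in Rps27rt, listed at 280 TPM, so reads from the coding sequence cannot be told apart within these pairs. Rpl37rt, at 492 TPM against 850 for Rpl37, differs from its parent at 1 of 291 coding bases. The windows around that base are shown because they are all that separates the genes over their coding length (GENCODE M21, GRCm38, 5′ to 3′ on the gene's strand). The capital marks the base that differs, coding position 249 counted from the first base of the start codon. Rpl37 is at chr15:5118576-5118605 (plus strand) and Rpl37rt at chr5:115103259-115103288 (minus strand).
Rpl37: ccgtgagggaacaacGccgaaacccaagag
Rpl37rt: ccgtgagggaacaacAccgaaacccaagag
In 222 cells both genes were above 0, in 241 only Rpl37 and in 10 only Rpl37rt. All 7 retrocopies share 97.5% to 100% of aligned coding bases with the parent, and their values are uncertain for this reason.

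The first comparison set anti-PD1 treated against untreated B16 tumors. The family's share of TPM averaged 15.8% and 14.8% in the untreated tumors and 16.5% and 16.9% in the treated ones. Both treated tumors lay above both untreated ones. The means were 15.3% ± 0.706 (SD, n = 2) and 16.7% ± 0.283 (SD, n = 2), a difference of 1.48 points or 1.10-fold, larger than either SD. No p-value is given for a sum over chosen genes. By subunit, the small subunit took 6.52% and 5.93% in B16 and 6.85% and 7.16% in B16PD1, and the large 8.08% and 7.75% against 8.56% and 8.50%. Of the 92 members, 75 had the higher mean TPM in B16PD1 and 13 the lower, while Rpl3l, Rpl10l, Rpl39l and Rps4l were at 0 in both. The share of all genes with a higher mean TPM was not taken. Rps29 and Rps27 were among the members that added most, with 915 and 853 TPM.

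Other values moved with this difference. The B16PD1 tumors had the most genes detected per cell (medians 3807.5 and 3838.5 against 3647 and 3388.5 in B16) and the lowest summed share of 7 melanocyte markers (1.40% and 1.45% against 1.68% and 1.67%). Their part in the result was not tested. Within bands of cells with 1000 to 2500, 2500 to 4000 and 4000 to 7000 genes detected, the B16PD1 tumors stood above the other 4 each time. The bands were chosen after the data were seen, and the lowest held only 13 and 15 B16PD1 cells. On the log2(TPM + 1) scale the median member difference was 0.25, and 0.081 with the number of genes detected as a covariate. The margin was smallest in the middle band, under 0.1 points between B16PD1000 (16.09%) and B16007 (16.004%), and in the highest band the values were 16.5% and 16.8% against 15.7% and 15.1% in B16. Restricted to the 24 members that are at least 90% unique, the share was 4.28% and 3.86% in B16 and 4.42% and 4.49% in B16PD1, a difference of 0.385 points and a fold of 1.09.

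Gene by gene, none of the 88 members tested passed an adjusted p of 0.05 in limma with Benjamini-Hochberg adjustment, where 0% of the 11264 genes tested did. Their differences were nonetheless mostly of 1 sign, with 80 of 88 (90.9%) positive, against 53.0% of all genes tested. The median was 0.25 on the log2(TPM + 1) scale, against 0.01 for all genes tested. In 40 members (45.5%) both B16PD1 tumors lay above both B16 tumors, against a background of 17.9%, and in 3 both lay below, against 15.4%. At an unadjusted p under 0.05 there were 14 members, all higher, where the background was 4.69%. Of those 528 background genes, 340 were higher.

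The largest differences were those of Rpl36a, Rpl17 and Rps12. On the log2(TPM + 1) scale Rpl36a stood at 4.82 and 3.80 in B16 and 5.15 and 5.89 in B16PD1, a difference of 1.21 (SE 0.39, limma adjusted p = 0.989). Rpl17, a large-subunit protein, stood at 7.25 and 6.19 against 7.45 and 8.08, a difference of 1.04 (SE 0.36, adjusted p = 0.989). Rps12, a small-subunit protein, stood at 7.0 and 5.95 against 7.22 and 7.61, a difference of 0.94 (SE 0.40, adjusted p = 0.989). In each the groups did not overlap and B16008 was the lowest of these 4 tumors, and none of the 3 has a unique window. The differences were much smaller with the log2 taken after averaging TPM over cells, at 0.30, 0.23 and 0.011, and with pseudogenes added to the parents, at 0.55, 0.28 and 0.39 (0.043 for Rps12 once its copy was added too). Mean TPM of Rps12 was 737 in B16 and 743 in B16PD1. Without B16008 the 3 differences were 0.70, 0.51 and 0.42. Rpl32 and Rpl4, the steadiest members, showed almost no difference (-0.0041 and -0.05).

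The level of B16008 weighed on this comparison. It was the lowest of the 6 tumors in 29 of 76 standard members, and R499015 in 31. These 2 tumors also had the fewest genes detected per cell (medians 3388.5 and 3141). The share of all genes lowest in each was not taken, so these counts are not read as particular to the family. In 59 of 76 standard members (77.6%) the highest level was in a B16PD1 tumor, as it was in 40.3% of all genes tested. Without B16008 the median member difference was 0.079, and without B16007 it was 0.41, with 1 member past the threshold among 2 of all genes tested. That member was Rps29, a small-subunit protein wholly unique in sequence, named here for this reason. It stood at 11.63 and 10.41 in B16 and 11.94 and 11.92 in B16PD1 (difference 0.91, SE 0.28, limma adjusted p = 0.989 with all tumors and 0.0205 without B16007). With the number of genes detected as a covariate the median member difference was 0.081, and with the log2 taken after averaging TPM over cells it was 0.14.

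The second comparison set R499 against B16, with the same B16 tumors as controls. The share of TPM was 14.5% and 15.4% in the R499 tumors, within reach of the 15.8% and 14.8% of the B16 tumors. The R499 mean of 15.0% ± 0.667 (SD, n = 2) was 0.314 points below that of B16, less than either SD, and without B16007 or without R499015 the difference was positive (0.186 and 0.158 points).

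None of the 88 members passed the threshold, with 0.0621% of all genes called. The median difference was -0.09 against -0.07 for all genes, with 32 members (36.4%) positive, near the 35.8% of all genes tested. The median was 0.20 with the number of genes detected as a covariate, 0.040 without B16007, -0.019 without R499015, -0.20 without R499016 and -0.32 without B16008. In 23 members (26.1%) both R499 tumors lay below both B16 tumors and in 7 above, near the backgrounds of 30.1% and 11.6%. At an unadjusted p under 0.05 there were 12 members, 10 of them lower, where the background was 10.5%. Of those 1188 background genes, 915 were lower.

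Rps2, a small-subunit protein at the mRNA entry site, had the largest difference. It stood at 10.99 and 10.61 in B16 and 9.33 and 10.39 in R499 on the log2(TPM + 1) scale, a difference of -0.94 (SE 0.30, limma adjusted p = 0.337), which was -0.41 without R499015, -1.47 without R499016, -0.37 with genes detected as a covariate and -0.59 with the log2 taken after averaging. The stalk protein Rplp2 stood at 9.98 and 9.82 against 8.79 and 9.23, a difference of -0.89 (SE 0.25, adjusted p = 0.241), the lowest adjusted p of the family here, and between -0.48 and -0.38 with the log2 taken after averaging, with all deposited cells or with more than 2000 genes detected. Both genes were lower in both R499 tumors without passing the test. The partners of Rplp2 in the stalk differed less, Rplp0 by 0.11 (SE 0.21) and Rplp1 by -0.21 (SE 0.21), with overlapping tumors. Rpl36a was 0.85 higher in R499 (5.11 and 5.21, SE 0.39, adjusted p = 0.460), but mean TPM was 331 in B16 and 337 in R499, and the difference was 0.030 with the log2 taken after averaging, -0.062 with pseudogenes added, 0.34 without B16008, 1.35 without B16007 and 1.52 with the covariate.

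Rpl41 and Rps26 lie close together on chromosome 10 (chr10:128548114-128549305 and chr10:128624534-128626747, GRCm38). Rpl41 stood at 12.09 and 11.88 in B16, 12.28 and 12.19 after anti-PD1, and 12.32 and 12.37 in R499, a difference of 0.36 between R499 and B16 (SE 0.17, adjusted p = 0.461), and it contributed the largest TPM gain of any member, 1088 TPM. Rps26, which overlapped between the groups, differed by 0.22 (SE 0.33).

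A last comparison set R499 against B16PD1, groups that differ in both line and treatment, so these cannot be told apart. The share was 1.79 points lower in R499 (15.0% ± 0.667 against 16.7% ± 0.283, SD, n = 2 each), 0.893-fold, and both R499 tumors lay below both B16PD1 tumors. R499 tumors also had fewer genes detected (medians 3141 and 3682) and a higher melanocyte marker share (1.72% and 1.66%), and the part of these in the result was not tested.

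Again none of the 88 members passed the threshold, with 0.071% of all genes called. Here 81 of 88 members were negative, as were 7575 of the 11264 genes tested. The median was -0.40 against -0.09 for all genes. In 56 members (63.6%) both R499 tumors lay below both B16PD1 tumors, against a background of 31.3%. In 1 member both lay above, against 10.2%. At an unadjusted p under 0.05 there were 33 members, all lower, where the background was 10.2%. Of those 1149 background genes, 973 were lower. Among 441 other genes detected in at least 90% of cells, the median was -0.0051 and 23.8% lay wholly below. With the number of genes detected as a covariate the median of the members was 0.12, of opposite sign, and with the log2 taken after averaging TPM over cells it was -0.20.

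The largest differences belonged to small-subunit proteins. Rps15a stood at 9.68 and 9.69 in B16PD1 and 8.00 and 8.60 in R499, a difference of -1.38 (SE 0.32, limma adjusted p = 0.170). Rps12 stood at 7.22 and 7.61 against 5.55 and 6.52, a difference of -1.38 (SE 0.40, adjusted p = 0.309). Rps20, with 98.7% unique windows, stood at 8.20 and 8.72 against 6.94 and 7.37, a difference of -1.30 (SE 0.31, adjusted p = 0.185). The B16 tumors lay between these groups for Rps20 (8.16 and 7.69). With the log2 taken after averaging the 3 differences were -0.51, -0.34 and -0.58. With genes detected as a covariate that of Rps20 was -0.63, while those of Rps15a and Rps12 turned positive (0.096 and 0.27). The Rps12 difference was -0.79 with pseudogenes and its copy added and -0.89 without R499015.

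**Figure D5:**
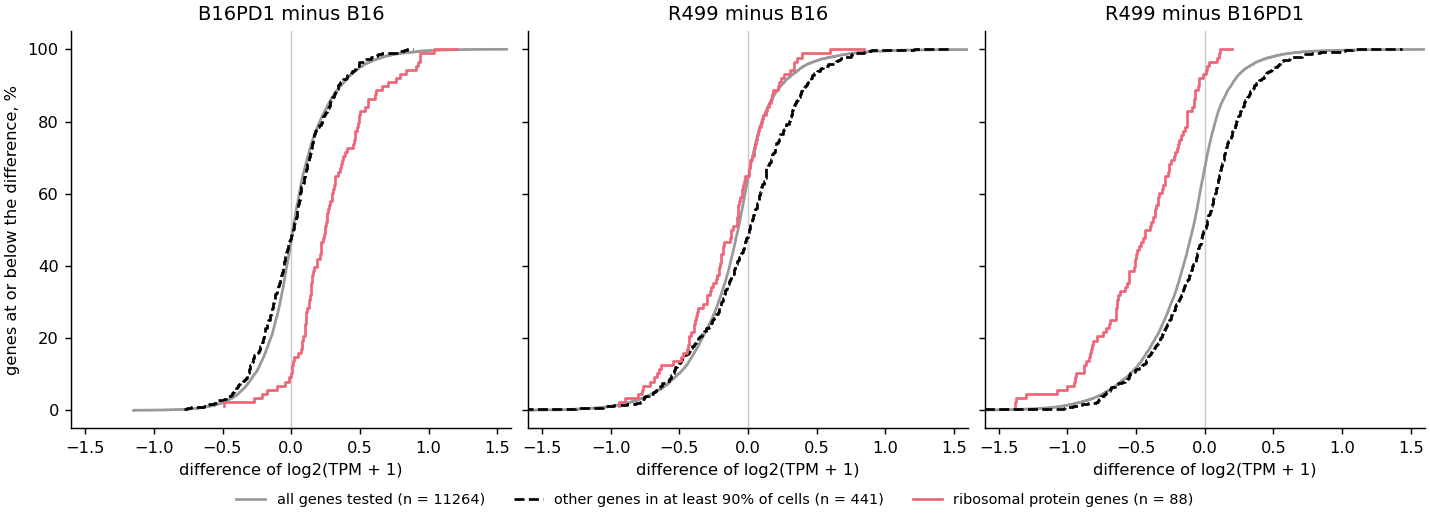
Cumulative percent of genes (y) at or below a difference of log2(TPM + 1) between condition means (x) for 88 ribosomal protein genes, all 11264 genes tested, and 441 other genes detected in at least 90% of cells. The ribosomal protein curve is shifted to higher values for B16PD1 minus B16 (median 0.25), lies near all genes for R499 minus B16 (median -0.09), and is shifted to lower values for R499 minus B16PD1 (median -0.40).

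The shift had the same sign in the subunits and in genes of different uniqueness. For B16PD1 minus B16 the median was 0.30 for the small subunit and 0.24 for the large subunit and stalk, and 0.26 for the 18 standard members with over 90% unique windows against 0.25 for the 24 with under 10%. For R499 minus B16PD1 the corresponding medians were -0.44 and -0.40, and -0.25 and -0.41.

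Other genes of the translation machinery were described in the same fit, and none of them passed the threshold in any comparison. Among ribosomal proteins outside the symbol rule, the differences between B16PD1 and B16 were 0.58 for Rps27a (a fusion with ubiquitin), 0.66 for Fau (a fusion with a ubiquitin-like protein) and 0.15 for Rack1. Fau stood at 9.90 and 9.58 in B16, 10.26 and 10.54 after anti-PD1, and 9.61 and 9.48 in R499. Of 15 elongation factors and TOP mRNAs, 8 were higher and 7 lower in B16PD1 than in B16, with a median of 0.04. Eef1a1, the factor that brings aminoacyl-tRNA to the ribosome and the most abundant of them at 6635 TPM, differed by 0.12. The 78 mitochondrial ribosomal proteins, which build the ribosome of the mitochondrion, had a median of 0.29, with 60 (76.9%) positive and 31 (39.7%) wholly above, against 53.0% and 17.9% of all genes tested. For R499 minus B16PD1 the mitochondrial ribosomal proteins had a median of -0.28, with 33 (42.3%) wholly below. The 15 elongation factors and TOP mRNAs had a median of -0.25, with 6 (40%) wholly below. The background there was 31.3% of all genes tested. The differences of these lists from the cytosolic family were not tested.

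For genes of ribosome assembly and rRNA synthesis the median was -0.03 for B16PD1 minus B16, with 13 of 28 positive. For R499 minus B16 it was -0.24, with 15 of 28 (53.6%) wholly below, against the background of 30.1%. For R499 minus B16PD1 it was -0.20, with 24 negative and 14 (50%) wholly below, against 31.3%. Their difference from the ribosomal proteins was not tested. Nop58, a core protein of the box C/D particles that methylate rRNA, stood at 7.52 and 7.68 in B16, 7.26 and 7.36 after anti-PD1, and 6.70 and 6.31 in R499, a difference of -1.09 between R499 and B16 (limma adjusted p = 0.240), the largest in the list. None of the 28 passed the threshold.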

How the data were processed

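Single-cell RNA-seq of 6 tumors (3 conditions, 2 mice each) was analysed from 1 deposited table. The authors aligned reads with STAR in 2-pass mode and quantified TPM with RSEM at default parameters; per the labels the build was mm10, and versions and annotation are not given in the sources used here. The deposited TPM of a cell summed to 999999.44 to 1000000.59. All columns were used (0 left out). Which labelled replicate a tumor column holds is not given, so tumors were only placed in conditions, and each counts as 1 replicate.

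Cells with more than 1000 genes above 0 and under 10% mitochondrial TPM were retained (507 of 602; doublets not called; a minimum of mapped reads could not be applied to TPM), and genes above 0 in more than 5 of them were tested (11264). Depth in reads is unknown. Tumor means of log2(TPM + 1) were fitted with limma 3.58.1 in R 4.3.3 (eBayes with trend, two-sided, Benjamini-Hochberg over all genes tested, threshold 0.05, all 6 tumors sharing 1 estimate of the spread). Differences are on that scale and understate changes of low genes. Checked on simulated data for R499 minus B16, with 11264 genes, limma called 72.4% of 98 genes changed by log2 1, 100% of 102 changed by log2 2, and 8 of 11064 unchanged genes. Each simulated gene varied independently with the median spread of genes at its level. Genes of larger spread and shifts of a whole tumor were left out, so the rates can be too high for the real data. Percent background means the share of all tested genes with the same call, or with both tumors of one condition beyond both of the other.

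GENCODE M21 (GRCm38) matched 25103 of 25215 gene IDs and all 92 members, and may differ from the annotation of the authors. Copies were aligned with Biopython 1.88. RefSeq promoters matched 68 members. Tables were handled in Python 3.11.15 with pandas 2.3.3 and numpy 2.4.6, intervals came from scipy 1.17.1, and plots from matplotlib 3.10.9. Intervals are 95% Wilson and, like the limit for 0 (3 cells), cover counting error only.

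Members and lists were chosen with earlier results of these data known. Named genes are the 5 highest and 5 lowest tested members by TPM, those not tested, paralogs and parents, the stalk and Rpsa, the 3 largest differences per contrast and any called, the 3 largest and 3 smallest SDs, Rps19bp1, and of other lists the 3 most abundant genes; others were named after their values were seen. Alternatives were other pseudocounts, gene and cell filters, log2 of mean TPM, centering, a genes-detected covariate, no trend, pseudogenes added and each tumor left out. Some genes are not reported here.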

Additional observations from a re-analysis of the deposited data

How the results depend on the processing

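No paired analysis was possible because the columns carry no replicate number of the labels. With 2 tumors a condition and unknown read depth, small differences of single members were not detectable, and 0 calls do not show equality. Over 19 alternatives per comparison, the count of members called stayed at 0 except without B16007 (1, Rps29, in B16PD1 minus B16, where 2 of all genes were called; the other alternatives called 0 to 28), so leaving out tumors gave 0 to 1 for B16PD1 against B16, 0 to 0 for R499 against B16, and 0 to 0 for R499 against B16PD1, the order kept below. A tumor left alone in its condition is assumed to vary like the others. The median member difference was 0.081, 0.20 and 0.12 (reversed from -0.40) with genes detected as a covariate, and for R499 minus B16PD1 it was -0.20 with log2 of mean TPM and -0.23 with more than 2000 genes detected; the cause was not tested. Without single tumors it ranged from 0.079 (without B16008) to 0.41 (without B16007), from -0.32 (without B16008) to 0.040 (without B16007), and from -0.47 to -0.30. The share difference then ranged from 0.977 to 1.98, -0.813 to 0.186 and -2.26 to -1.32 points. The share was also restricted to members at least 90% unique, chosen after seeing the data like the bands of genes detected and the addition of copies to parents. With fewer genes in the sum, the differences were 0.385, 0.084 (from -0.314) and -0.301 points. The folds were 1.09, 1.02 and 0.933, against 1.10, 0.979 and 0.893 with all members, and the cause was not tested. Differences of members named for their size, none past the threshold, changed sign as follows. For R499 minus B16, Rpl17 was -0.081 with log2 of mean TPM and -0.15 with mitochondrial share under 5%, Rpl36a -0.062 with pseudogenes (and copies) added, Rps12 0.20 with more than 2000 genes detected, and Rps12 0.59 and Rps15a 0.38 with the covariate. For R499 minus B16PD1 the covariate gave 0.13 for Rpl17, 0.70 for Rpl36a, 0.27 for Rps12, 0.096 for Rps15a and 0.068 for Rps2, and all deposited cells 0.022 for Rpl36a. For B16PD1 minus B16, Rplp2 was 0.0043 with pseudocount 10, 0.0060 with log2 of mean TPM and 0.24 with all deposited cells. Without single tumors these ran from -0.42 to 0.64 (Rpl17, R499 minus B16), -0.73 to 0.0076 (Rpl36a, R499 minus B16PD1), -0.15 to 0.12 (Rplp2, B16PD1 minus B16), -0.96 to 0.088 (Rps12, R499 minus B16) and -0.39 to 0.18 (Rps2, B16PD1 minus B16).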
